A study of Mus musculus with 56 samples.

Results

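Visceral adipose tissue (VAT) was compared between mice under daytime-restricted feeding collected at ZT4 (DRF ZT4) and mice under nighttime-restricted feeding collected at ZT16 (NRF ZT16). Zeitgeber time (ZT) counts hours from lights on. DRF mice were offered food in the light phase and NRF mice in the dark phase, so both groups stood 4 h into the 12 h with food, one in the light and one in the dark. The comparison holds 8 of the 56 VAT libraries, 4 in each group, chosen by dietary regimen and zeitgeber time alone. All animals were C57BL/6J females of 9 weeks, kept under 12 h of light and 12 h of dark on normal chow, with 7 days on their regimen and no drug or transgene in the labels. NRF is the reference regimen, and each library held the polyA RNA of 1 mouse.

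Aligning the groups on food leaves both the light phase and the regimen different between them, and the pair by itself cannot tell these apart. For this reason it was set beside the opposite pair, NRF ZT4 (4 libraries) and DRF ZT16 (4 libraries). That fasting-aligned pair lies 4 h into the 12 h without food, has the same day against night difference and the reverse difference in regimen, and shares no library with the first. A gene with the same sign in both pairs was higher at one time of day under either state, whereas a gene with opposite signs was higher under one regimen in both feeding states, which does not say that it was so at both zeitgeber times. A later feeding-aligned pair, DRF ZT8 and NRF ZT20 (4 libraries each), was taken 8 h after food came. Differences are given as the daytime group minus the nighttime group in log2(CPM + 1), where CPM is read counts scaled to a common effective library size.

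The mammalian clock is a loop of transcription factors present in nearly every cell. BMAL1 (Arntl) pairs with CLOCK or NPAS2 and switches on the Per, Cry, Rev-erb and PAR bZIP genes through E-box sequences, PER and CRY proteins repress that pair, and REV-ERBs repress and RORs activate Arntl and Npas2 in turn. Light sets the master clock in the brain, while meal times, body temperature and adrenal glucocorticoids carry time to organs such as fat, liver and heart. Adipose tissue stores meals as triglyceride, makes fatty acids and sterols when insulin is high, and releases fatty acids in the fast.

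Reads recovered from the deposited values came to 34584482 to 38809309 per DRF ZT4 library and 34849421 to 36354927 per NRF ZT16 library. Adipocyte markers were abundant in both, with a summed level of 45170 to 49900 CPM at DRF ZT4 and 50220 to 62030 CPM at NRF ZT16. NRF ZT16 replicate 4 had the highest Arntl, Npas2 and Nfil3 and the lowest Dbp, Nr1d2, Tef and Hlf of its group. In none of these was it far enough out to be marked by Dixon's ratio. The clock counts and the results of Arntl, Cry1, Rora, Dbp and Nfil3 are also given without it below. Without it Npas2 differed by 2.14, Nr1d2 by -1.44, Tef by -1.35, Hlf by -0.97 and Per1 by -0.97, all still past the test. Bhlhe40 gave 0.48 without it and did not pass. The adipocyte sums lay apart, lower at DRF ZT4, although only 1 member was called in each direction of 10. Cfd, 1 of the 10, averaged 5879 CPM at DRF ZT4 and at least 11824 CPM at NRF ZT16. Its difference was about as large as that of the mean sums, 47830 and 53940 CPM, so the gap does not describe the list as a whole. Other marker lists moved with the comparison, among them those of red cells and neutrophils, with 6 of 7 tested members higher at DRF ZT4 (summed 473 to 862 CPM against 272 to 403 CPM), and those of mesothelium, macrophages and adipose progenitors, with 3 of 11, 4 of 11 and 5 of 10 members lower. Only 1 of these members, a progenitor marker, was higher, where 19.5% of all genes were higher and 15.1% lower. These last counts are loose, since 2 macrophage markers were lower without DRF ZT4 replicate 3 and 2 progenitor markers without DRF ZT4 replicate 4. The summed progenitor level was higher at DRF ZT4 (1217 to 1327 CPM against 1067 to 1193 CPM). Its member Col15a1, a collagen gene, averaged 621 CPM at DRF ZT4 and 318 CPM at NRF ZT16. That gap is larger than the gap of the mean sums, 1255 and 1124 CPM. Exocrine pancreas markers were low but apart, at 19.96 to 24.76 CPM summed at DRF ZT4 and 5.491 to 11.98 CPM at NRF ZT16, with 4 of 10 markers in the table and 1 tested. Most of that sum was the 1 tested, Cela1. It averaged at least 17.54 CPM at DRF ZT4 and 8.73 CPM at NRF ZT16, where the mean sums were 22.78 and 9.05 CPM. T lymphocyte, skeletal muscle and uterine epithelium markers gave no member past the test. In bulk tissue, fewer cells of a type and less RNA per cell cannot be told apart, and the part of these cells in the results below was not tested.

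Food had been on offer equally long in both groups, yet a large share of genes differed. Of 15509 genes tested, 5375 (34.7%) passed an adjusted p of 0.05 in limma, 3026 higher at DRF ZT4 (19.5%) and 2349 lower (15.1%). The differences were mostly small, since only 117 of the higher and 92 of the lower genes reached 1 on the log2 scale, against a median standard error of 0.11. For comparison, the fasting-aligned pair gave 4393 genes (28.3%), 2381 higher and 2012 lower by day. The direction depended on scaling. With library totals in place of effective sizes the median of all genes moved from 0.01 to -0.11. The split became 1654 higher and 3717 lower, so a gene near 0 has no firm direction. Effective size over recovered reads itself lay apart, at 0.940 to 1.028 in DRF ZT4 libraries and 1.047 to 1.137 in NRF ZT16 libraries.

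Both contrasts called 1676 genes, 31.2% of the feeding-aligned and 38.2% of the fasting-aligned calls. Only 608 of them (36.3%) had the same sign, 281 higher by day and 327 higher by night. The other 1068 (63.7%) had opposite signs, 696 higher under DRF in both feeding states and 372 higher under NRF in both feeding states. By library totals these 4 counts became 249, 254, 368 and 917, so the share with opposite signs remained the larger one while its split between the regimens turned. Leaving out DRF ZT4 replicate 4 left 245 genes higher under NRF, and leaving out DRF ZT16 replicate 1 left 398 genes with the same sign. With all 56 libraries in the fit, 353 genes had the same sign and 494 had opposite signs. Across all 15509 genes the log2 differences of the 2 pairs had a Pearson r of -0.16, a description over genes, which are not independent replicates. Among the genes called in both pairs, more kept one direction by regimen than by time of day.

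**Figure D1:**
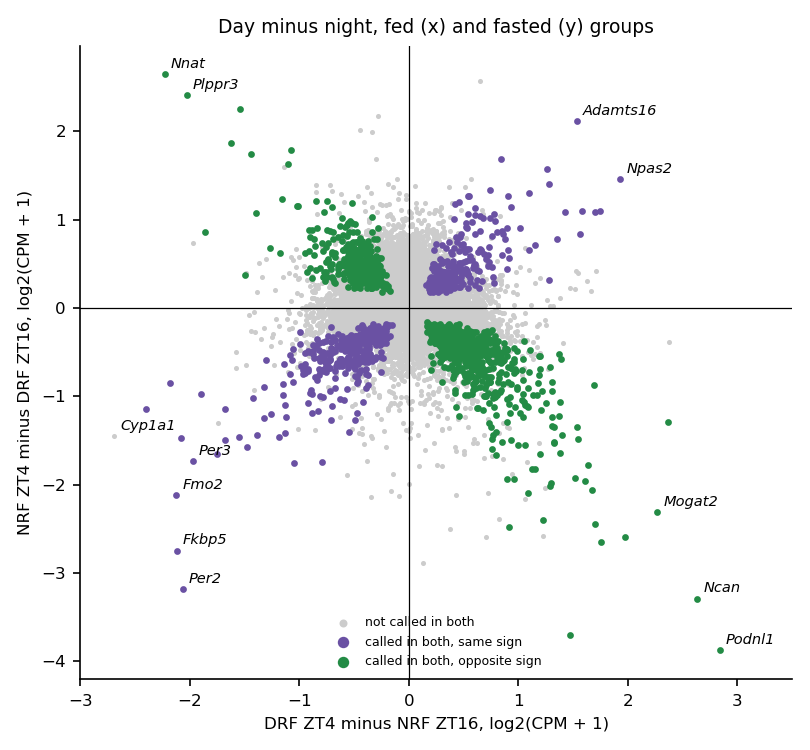
Each point is 1 of 15509 genes, with the log2(CPM + 1) difference of DRF ZT4 minus NRF ZT16 on the x axis and of NRF ZT4 minus DRF ZT16 on the y axis; purple points passed in both contrasts with the same sign (608 genes), green points with opposite signs (1068 genes), and grey points in at most one. Per2, Per3, Fkbp5 and Fmo2 lie low in both, Npas2 and Adamts16 high in both, and Podnl1, Ncan and Mogat2 sit at the far end of the opposite-sign genes.

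Libraries of the 5 other time points, 40 in all, entered neither pair. Over them the DRF minus NRF difference had the direction of the feeding-aligned contrast for 92.8% of the 696 genes higher under DRF and 94.4% of the 372 higher under NRF, against 50.2% of those higher by day, 47.4% of those higher by night and 65.1% of all genes tested. Of the 696, 312 passed in these libraries with the same sign and 1 with the other, where 18.3% of all genes passed. DRF ZT8 replicate 1 and DRF ZT0 replicate 4 stand apart in the series. Without them the shares were 94.7% and 96.8%, against 54.8% of genes higher by day, 51.7% higher by night and 68.9% of all genes. Of the 696, 454 then passed with the same sign and 1 with the other, where 30.7% of all genes passed. Of the 372, 258 passed with the same sign and none with the other. The 40-library comparison was chosen after the first results were seen.

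The clock genes differed broadly. All 20 genes of the 4 clock lists were tested and 17 passed (85%, against 34.7% of all genes), 5 higher and 12 lower at DRF ZT4. In 4 of the higher and 9 of the lower genes the 4 DRF ZT4 libraries did not overlap the 4 NRF ZT16 libraries (34.9% of all genes tested, 19.7% higher and 15.1% lower). Without NRF ZT16 replicate 4, 5 rose and 11 fell, the lost call being Rora.

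The promoters of 6 clock genes are printed because they hold letters that match sequence elements of this loop. Bhlhe41, which also held an E-box match, is not printed. RefSeq windows of the 250 bases before the transcription start (build GRCm38.p6, 5′ to 3′ on the gene's strand) matched 17 of the 20 clock genes by symbol. Capitals mark exact matches on either strand to CACGTG (E-box), TTATGNAA (D-box, the PAR bZIP and NFIL3 element) or TAGGTCA (RORE core, the REV-ERB and ROR element), and no marked matches overlap.
Per1 (chr11:69098699-69098948, plus strand): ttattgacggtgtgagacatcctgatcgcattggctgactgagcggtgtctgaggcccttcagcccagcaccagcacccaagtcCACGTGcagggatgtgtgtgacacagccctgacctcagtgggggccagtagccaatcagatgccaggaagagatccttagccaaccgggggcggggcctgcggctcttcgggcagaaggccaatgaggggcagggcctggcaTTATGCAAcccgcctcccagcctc
Ciart (chr3:95882229-95882478, minus strand): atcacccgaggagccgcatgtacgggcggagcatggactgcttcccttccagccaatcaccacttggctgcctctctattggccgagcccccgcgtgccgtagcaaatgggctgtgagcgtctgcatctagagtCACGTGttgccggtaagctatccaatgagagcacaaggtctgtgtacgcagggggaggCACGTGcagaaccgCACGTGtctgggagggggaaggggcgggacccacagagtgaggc
Tef (chr15:81811164-81811413, plus strand): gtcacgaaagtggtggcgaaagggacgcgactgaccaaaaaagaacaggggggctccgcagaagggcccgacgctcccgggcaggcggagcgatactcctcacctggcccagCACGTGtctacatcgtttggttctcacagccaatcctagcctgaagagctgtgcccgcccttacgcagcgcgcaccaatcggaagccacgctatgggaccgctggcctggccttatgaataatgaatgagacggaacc
Cry1 (chr10:85185055-85185304, minus strand): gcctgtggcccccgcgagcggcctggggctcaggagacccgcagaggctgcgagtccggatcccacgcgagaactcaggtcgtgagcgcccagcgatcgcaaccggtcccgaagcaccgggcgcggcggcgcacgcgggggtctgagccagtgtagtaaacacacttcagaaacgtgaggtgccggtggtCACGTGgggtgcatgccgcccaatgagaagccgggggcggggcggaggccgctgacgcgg
Per3 (chr4:151044666-151044915, minus strand): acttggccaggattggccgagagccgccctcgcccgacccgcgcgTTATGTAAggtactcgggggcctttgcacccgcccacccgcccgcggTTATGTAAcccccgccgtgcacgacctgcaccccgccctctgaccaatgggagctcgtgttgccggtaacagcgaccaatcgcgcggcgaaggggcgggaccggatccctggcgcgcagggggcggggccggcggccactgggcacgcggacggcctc
Nfil3 (chr13:52981040-52981289, minus strand): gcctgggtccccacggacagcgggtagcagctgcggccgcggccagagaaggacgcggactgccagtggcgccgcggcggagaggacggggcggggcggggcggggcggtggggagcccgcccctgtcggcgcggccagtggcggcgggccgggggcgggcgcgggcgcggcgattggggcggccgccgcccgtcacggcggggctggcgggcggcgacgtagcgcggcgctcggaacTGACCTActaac
The E-box letters stood before 5 of the 17 clock genes, namely Per1, Cry1, Ciart (3 matches), Bhlhe41 and Tef, and before 6.86% of the 27025 genes in the table. TTATGNAA stood before Per1 and Per3 (3.63% of all genes) and TAGGTCA before Nfil3 (2.55%). The glucocorticoid element core ACANNNTGT and the heat shock element core GAANNTTC, present before 6.76% and 7.73% of all genes, were in none of the 22 windows of these 17 genes. A match here is a description of letters only.

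Of the 4 clock activators tested, 3 were higher at DRF ZT4 and 1 was lower (19.5% of all genes higher, 15.1% lower). Arntl, which encodes BMAL1, measured 31.7, 30.8, 28.1 and 35.5 CPM in the 4 DRF ZT4 libraries and 5.2, 8.45, 5.34 and 22.7 CPM at NRF ZT16. The groups did not overlap, with replicate 4 of NRF ZT16 well above the other 3 of its group. The difference was 1.74 ± 0.31 (SE) with limma adjusted p = 0.00071, and 2.17 without that replicate. Npas2, a partner of BMAL1, was at 5.89, 4.64, 4.84 and 7.78 CPM against 0.653, 0.547, 0.351 and 1.72 CPM (1.93 ± 0.23, adjusted p = 5.6e-05 by limma), again with replicate 4 the highest of NRF ZT16. Clock itself differed less, 87.6, 90.3, 96.8 and 108 CPM against 59.1, 74.2, 56.4 and 80.8 CPM (0.51 ± 0.11, limma adjusted p = 0.0023). In the fasting-aligned pair Arntl (1.09) and Npas2 (1.46) passed with the same sign, and Clock did not (-0.14, limma adjusted p = 0.33), the fed and fasted differences of Clock being 0.65 apart (adjusted p = 0.0038). Arntl2, a BMAL1 paralog, went the other way at -0.56 ± 0.13.

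Of the 8 clock repressors tested, 5 were lower at DRF ZT4 and none higher (15.1% of all genes lower), the 3 Per genes among the lower ones. Per2 stood at 28.5, 17.7, 23.7 and 19.6 CPM at DRF ZT4 and 118, 109.7, 70.7 and 90.2 CPM at NRF ZT16, fully apart, with a difference of -2.07 ± 0.24 and limma adjusted p = 4.9e-05. Per3 was at 21.9, 18.97, 18.3 and 14.2 CPM against 87.4, 76.2, 74.7 and 61.2 CPM, also fully apart (-1.97 ± 0.13, limma adjusted p = 2.5e-07). Per1 followed at -1.13 ± 0.26. All 3 Per genes were low by day in the fasting-aligned pair too, at -3.18 for Per2, -1.73 for Per3 and -1.09 for Per1, and the 2 day against night differences of Per2 differed from each other by 1.12 (limma adjusted p = 0.02), a test that 35.9% of all genes passed. Feeding state over the same 16 libraries gave 1.90 for Per2 and 0.58 for Per3 (fed minus fasted, a contrast that 31.3% of all genes passed). Per2 was lowest at NRF ZT4, at 5.19, 1.42, 4.14 and 2.96 CPM.

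Cry1 and the Bhlhe factors did not show the pattern. Cry1 measured 31.5, 18.4, 31.7 and 34.3 CPM at DRF ZT4 and 25.3, 35.1, 23.1 and 45.1 CPM at NRF ZT16, overlapping ranges with a difference of -0.13 ± 0.20 that did not pass (limma adjusted p = 0.63) and was 0.04 without NRF ZT16 replicate 4. It passed in the fasting-aligned pair (-1.07), and the 2 differences were 0.94 apart (limma adjusted p = 0.019). Bhlhe40 and Bhlhe41, E-box repressors that respond to many signals, had differences of 0.28 ± 0.48 and -0.32 ± 0.23 and did not pass; without NRF ZT16 replicate 3 these became -0.35, still not past the test, and -0.58 (limma adjusted p = 0.026). Their feeding differences were 2.36 and 1.89. Cry2 (-0.37 ± 0.10) and Ciart (-0.55 ± 0.18), the latter under 3 CPM in all 8 libraries of this pair, were both lower at DRF ZT4. Ciart lost its call on leaving out DRF ZT4 replicate 2, 3 or 4 or NRF ZT16 replicate 1 or 2, with adjusted p of 0.054 to 0.094 in limma.

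**Figure D2:**
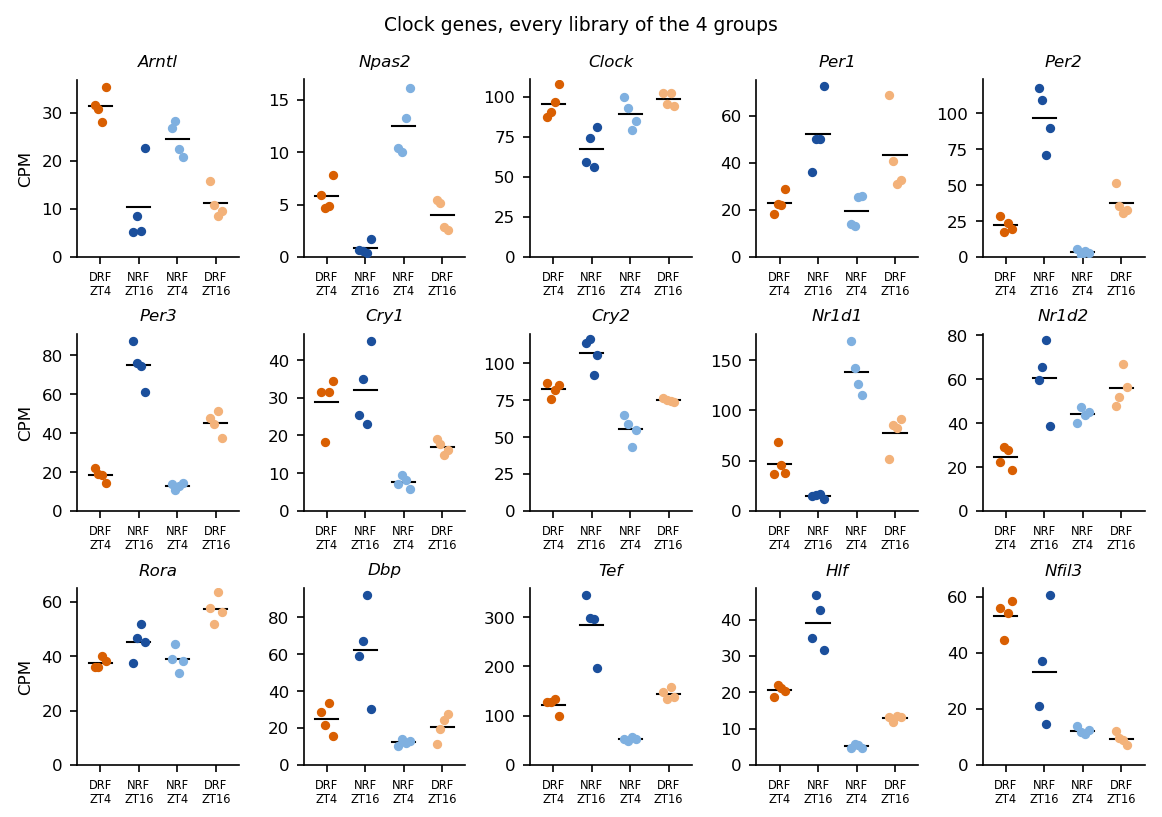
CPM of 15 clock genes in each of the 16 libraries, 4 dots per group with a bar at the group mean (dark orange DRF ZT4, dark blue NRF ZT16, light blue NRF ZT4, light orange DRF ZT16; all axes start at 0). Arntl and Nr1d1 lie higher and the Per genes, Tef and Hlf lower in DRF ZT4 than in NRF ZT16, and the single high Arntl dot at NRF ZT16 is replicate 4.

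Both REV-ERB genes separated the groups. Nr1d1 (REV-ERBα) was at 36.7, 68.4, 46.2 and 37.4 CPM at DRF ZT4 and 14.9, 16.2, 16.4 and 11.9 CPM at NRF ZT16, a rise of 1.57 ± 0.20 (limma adjusted p = 6.8e-05). Nr1d2 (REV-ERBβ) was at 22.4, 29.3, 27.9 and 18.5 CPM against 59.7, 65.8, 77.8 and 38.7 CPM, a fall of 1.25 ± 0.17 (limma adjusted p = 0.00014). Neither gene overlapped between the groups, yet the paralogs lay in opposite order. The end of Nr1d1 overlaps that of Thra on the other strand, and with a kit that keeps no strand their shared reads cannot be told apart. Nr1d1 was far higher at NRF ZT4, at 169, 142, 126 and 115 CPM, than in any of the 4 DRF ZT4 libraries, and its feeding difference was -1.92 (limma adjusted p = 5.3e-08). Rora, an opposing receptor, was lower at DRF ZT4 by a small margin (-0.26 ± 0.10), and lost its call without NRF ZT16 replicate 4 (limma adjusted p = 0.083) and on leaving out any one of 6 other libraries of the pair.

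The PAR bZIP factors, activators at the D-box, were lower at DRF ZT4, and their competitor Nfil3 was higher. Tef measured 128, 127, 135 and 100.3 CPM against 346, 299, 296 and 197 CPM (-1.19 ± 0.13, limma adjusted p = 3.1e-05), and Hlf 18.6, 21.9, 21.3 and 20.3 CPM against 34.98, 46.7, 42.7 and 31.7 CPM (-0.88 ± 0.11). Every DRF ZT4 library lay below every NRF ZT16 library for both genes. Dbp overlapped, at 28.5, 21.6, 33.6 and 15.6 CPM against 58.9, 66.8, 91.9 and 30.1 CPM, replicate 4 of NRF ZT16 lying within the DRF ZT4 range. Its difference was -1.24 ± 0.30 (limma adjusted p = 0.0053) and -1.54 without that library. Nfil3 overlapped for the same library, 55.9, 44.4, 54.3 and 58.3 CPM against 20.9, 37.0, 14.6 and 60.6 CPM (0.85 ± 0.29, limma adjusted p = 0.031, and 1.20 without it). By library totals Nfil3 did not pass, nor did it on leaving out DRF ZT4 replicate 1, 3 or 4 or NRF ZT16 replicate 1 or 3, with adjusted p of 0.059 to 0.10 in limma.

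Over the whole day, some of these genes reached their highest mean at different hours from food under the 2 regimens and others at the same hour. Mean Arntl peaked 4 h after food came under DRF (31.5 CPM) and 12 h after it under NRF (38 CPM), and mean Dbp peaked 8 h after it under DRF (57.7 CPM) and as food came under NRF (256 CPM at ZT12). Mean Nr1d1 ran between 45.5 and 77.8 CPM under DRF and between 4.48 and 254 CPM under NRF. Per1, Per3, Tef and Rora had their highest mean as food came under both regimens, at ZT0 under DRF and ZT12 under NRF. Under DRF the ZT24 group, also taken as food came, did not repeat this for Per1, Per3 and Tef, whose means at ZT24 (45.9, 47.3 and 142 CPM) lay below those at ZT12 (62.7, 52.9 and 161 CPM). Cry2 peaked 4 h into food under both, at 82.3 CPM under DRF and 107 CPM under NRF. Peaks are those of group means from ZT0 to ZT20 and carry no test.

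**Figure D3:**
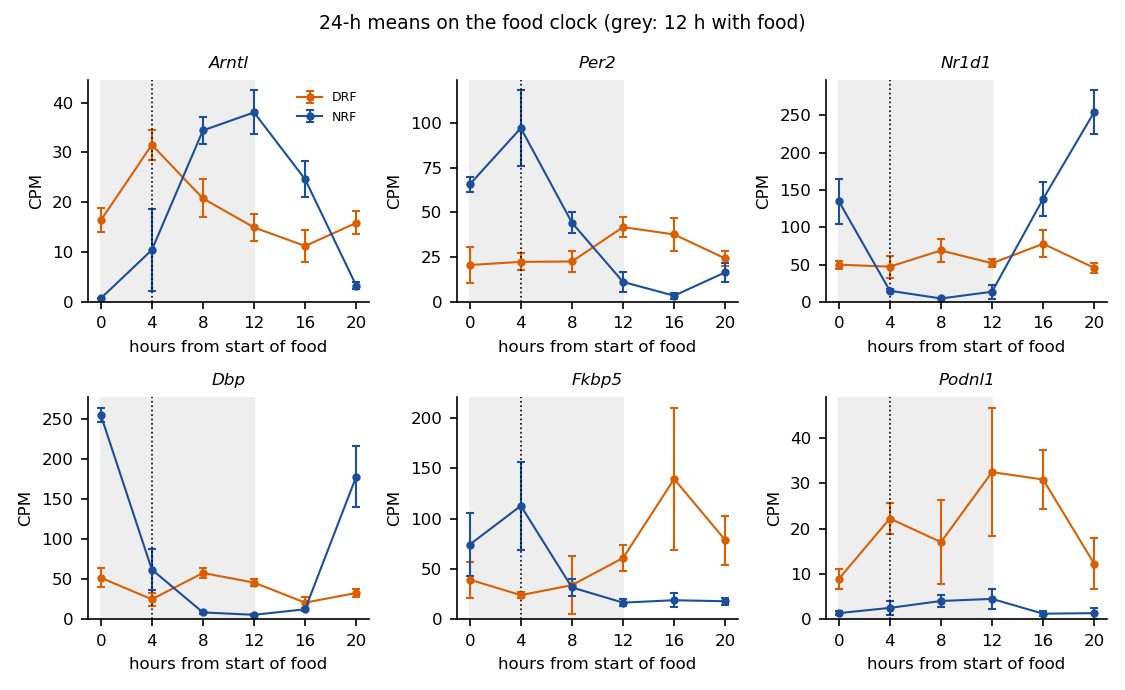
Mean CPM (points, 4 libraries each) with SD bars against hours from the start of food for DRF (orange) and NRF (blue), with the 12 h with food shaded and the dotted line at 4 h, where DRF ZT4 and NRF ZT16 are compared. At the dotted line Arntl, Nr1d1 and Podnl1 are higher and Per2, Dbp and Fkbp5 lower under DRF, and the curves of Arntl, Nr1d1 and Dbp cross at other hours.

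The next feeding-aligned pair gave a different picture for several of these genes. DRF ZT8 and NRF ZT20 differed by limma in 24 of 15509 genes (0.155%; 1517 at an unadjusted p under 0.05) and in 97 (0.625%) without DRF ZT8 replicate 1, which stands apart in the series. The count was 3 without NRF ZT20 replicate 1, 2 or 3 and 3 with the replicate number as a block. Nr1d1 was higher at DRF ZT8 by 3.64 ± 0.17 (limma adjusted p = 4.9e-05). Nr1d2 (2.91) and Dbp (2.68) were also higher there, the reverse of their sign in the pair taken 4 h after food. Arntl was -0.72 ± 0.14 in this pair, again the reverse of the earlier sign, and passed only without replicate 1 (limma adjusted p = 0.021). Of the 3026 genes higher at DRF ZT4, 49.4% were higher at DRF ZT8 as well, or 70.1% without that replicate. Of the 2349 lower genes, 57.1% were lower there too, or 68.2% without it. Over all genes the signs matched in 49.9% and 60.3%. Among genes called in both pairs of ZT4 and ZT16, the sign matched for 63.3% of those higher by day. It matched for 72.5% of those higher by night, 42.4% of those higher under DRF and 52.2% of those higher under NRF. Without that replicate these shares were 70.5%, 77.1%, 72.3% and 62.4%.

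Genes lower by day in both pairs were led by Per2, Per3, Fmo2, Fkbp5, Nmb and Tsc22d3. Fkbp5, a co-chaperone of the glucocorticoid receptor and one of its best known targets, measured 20.5, 24.1, 23.6 and 27.2 CPM at DRF ZT4 and 132, 165, 73.7 and 80.4 CPM at NRF ZT16. In the fasting-aligned pair it was at 26.9, 12.4, 22.1 and 13.7 CPM by day and 230.1, 158, 66.7 and 103 CPM by night. Day and night libraries did not overlap in either pair, with differences of -2.12 ± 0.33 and -2.75 ± 0.33, and the difference between these was 0.63 (limma adjusted p = 0.31). Tsc22d3 (GILZ, another target of that receptor) was at 69.1, 66.2, 69.3 and 85.9 CPM against 177, 262, 186 and 197 CPM in the fed pair (-1.48 ± 0.22) and differed by -1.57 in the fasted pair. Fmo2, a flavin monooxygenase, had nearly equal differences, -2.13 ± 0.16 and -2.12 ± 0.16, from 37.4, 35.1, 28.2 and 40.2 CPM at DRF ZT4 against 149, 160.0, 179 and 139 CPM at NRF ZT16.

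As a list, 11 of 19 glucocorticoid-responsive genes were lower at DRF ZT4 and 1 was higher, with a median of -0.48, against 15.1% lower and a median of 0.01 over all genes. Per1 and Tsc22d3 stand on this list and on clock lists as well. Klf9 (-0.92 ± 0.12) and Klf15 (-0.82 ± 0.18), transcription factors induced by the receptor, passed in the fasting-aligned pair with the same sign. The member that rose was Hsd11b1, the enzyme that regenerates active glucocorticoid from its inactive form. It stood at 107, 116, 110.3 and 207 CPM at DRF ZT4 against 37.5, 53.7, 37.2 and 52.5 CPM at NRF ZT16 (1.52 ± 0.21, limma adjusted p = 0.00014) and was lower by day in the fasted pair (-1.93), that is, higher under DRF in both feeding states. Without NRF ZT16 replicate 4 the list counted 9 lower and 1 higher. Between DRF ZT8 and NRF ZT20 no member passed and the median was 0.26. Without DRF ZT8 replicate 1, 4 were higher there and none lower (median 0.34, 0.625% of all genes called). Over the 5 other time points 4 were higher under DRF and none lower (9.88% of all genes higher).

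Clock output genes gave 11 of 17 lower and 1 higher (15.1% lower among all genes), among the lower ones Cys1, Fmo2, Tsc22d3, Wee1 and Tspan4. Wee1, a cell cycle kinase with clock-driven expression, fell by 1.26 ± 0.14 and had -1.20 in the fasted pair. Cys1 fell from 25.5, 24.9, 25.98 and 20.8 CPM at NRF ZT16 to 4.31, 4.61, 6.06 and 4.91 CPM at DRF ZT4 (-2.09 ± 0.13, limma adjusted p = 1.6e-07), groups wide apart. Tspan4 (-1.07 ± 0.12) did not pass in the fasted pair (-0.23), and its 2 differences were -0.84 apart (limma adjusted p = 0.0014).

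Genes higher by day in both pairs (281) were led by Npas2 and Adamts16. Adamts16, a secreted metalloproteinase, was at 7.55, 11.3, 8.62 and 6.17 CPM against 2.49, 1.67, 1.86 and 2.9 CPM (1.53 ± 0.27, and 2.11 in the fasted pair). Ffar2, a receptor for short-chain fatty acids, was at 18.9, 31.4, 18.6 and 29.8 CPM against 6.85, 8.78, 14.8 and 8.22 CPM (1.28 ± 0.28, and 1.40 fasted). Day libraries lay above night libraries in both genes and both pairs. Fbn1, the microfibril protein fibrillin-1, rose by 1.10 ± 0.16 fed and 1.30 fasted, and the zinc finger gene Zim1 by 1.26 and 1.58.

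**Figure D4:**
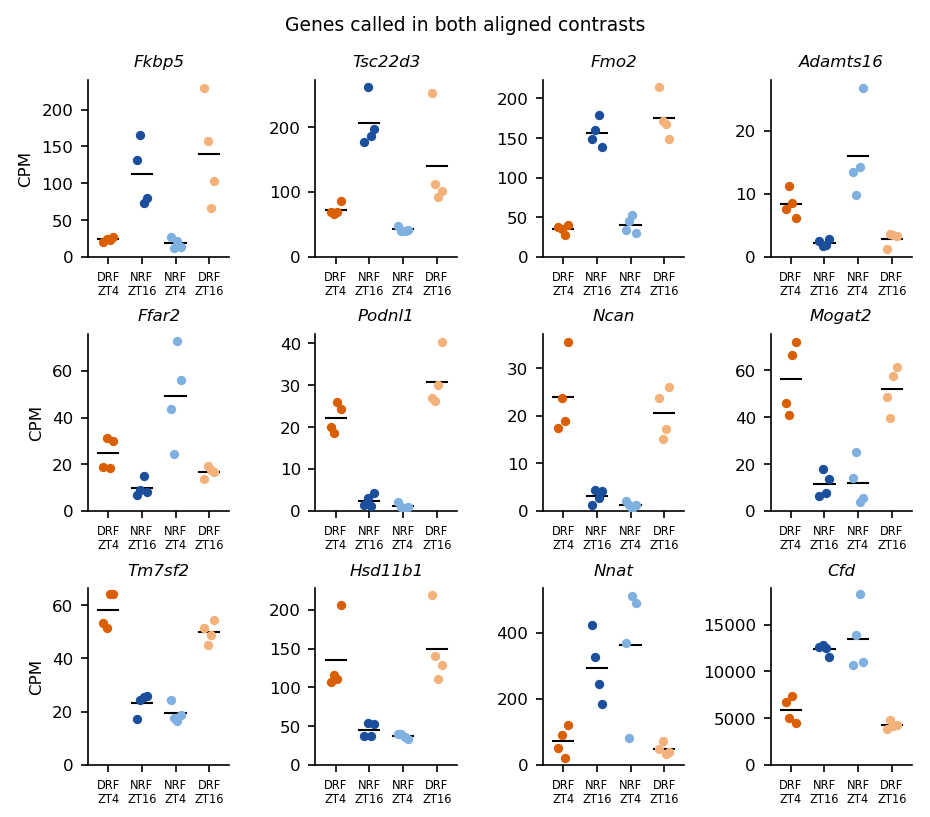
CPM of 12 genes called in both aligned contrasts, 4 dots per group with a bar at the mean and axes from 0; colours as in the plot of clock genes. Fkbp5, Tsc22d3 and Fmo2 are low in both ZT4 groups, Adamts16 and Ffar2 high in both ZT4 groups, Podnl1, Ncan, Mogat2, Tm7sf2 and Hsd11b1 high in both DRF groups, and Nnat and Cfd high in NRF groups, with 1 low Nnat library at NRF ZT4.

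The 3 largest rises at DRF ZT4 among the named genes, Podnl1, Ncan and Mogat2, were genes higher under DRF in both feeding states. Podnl1, a small leucine-rich proteoglycan of the matrix, measured 20.1, 18.5, 26.02 and 24.3 CPM at DRF ZT4 against 1.33, 3.2, 1.08 and 4.28 CPM at NRF ZT16. It was also high at DRF ZT16 (26.9, 26.1, 29.99 and 40.3 CPM) and low at NRF ZT4 (2.06, 0.997, 0.669 and 1.04 CPM). The differences were 2.84 ± 0.26 fed and -3.88 ± 0.26 fasted (limma adjusted p = 7.5e-06 and 5.1e-07), and DRF exceeded NRF by 1.92 ± 0.19 over the 5 other time points. Ncan, the proteoglycan neurocan, was at 17.5, 23.7, 18.9 and 35.6 CPM against 1.23, 4.32, 2.64 and 4.18 CPM (2.63 ± 0.30 fed, -3.29 fasted, 1.69 at the other times). Mogat2, which re-esterifies monoacylglycerol into diacylglycerol, was at 46.03, 40.9, 66.6 and 72.3 CPM against 6.43, 17.8, 7.82 and 13.8 CPM (2.27 ± 0.41, -2.31 fasted). All 3 genes were higher in every DRF library than in every NRF library of the 4 groups.

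Pdzk1ip1, Elovl3 and Tlcd2 followed in this class. Pdzk1ip1, a small membrane protein, rose by 1.75 ± 0.30 and had -2.65 in the fasted pair. Elovl3, an elongase of very long chain fatty acids, was at 20.1, 8.22, 30.04 and 11.1 CPM against 1.72, 4.73, 5.64 and 5.38 CPM (1.70 ± 0.43), a wide spread among the DRF ZT4 mice, and its regimen difference at the other times did not pass (0.58 ± 0.30, limma adjusted p = 0.18). Tlcd2 rose by 1.67 ± 0.33. These genes kept their direction under library totals.

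Of the cholesterol synthesis genes, 17 of 23 were higher and none lower at DRF ZT4 (19.5% higher among all genes), with a median of 0.77, and 18 were lower by day in the fasted pair (median -1.25; 13.0% lower among all genes). By library totals 11 were higher and none lower, and 8 were higher without NRF ZT16 replicate 1. Over the 5 other time points only 3 of the 23 were higher under DRF and none lower (median 0.11, 9.88% of all genes higher). Without DRF ZT8 replicate 1 and DRF ZT0 replicate 4, 7 were higher, where 2486 of all 15509 genes were. None passed between DRF ZT8 and NRF ZT20 (median -0.13, or 0.06 without DRF ZT8 replicate 1). Tm7sf2, a sterol reductase, stood at 53.1, 51.3, 64.2 and 64.2 CPM against 17.2, 24.2, 25.4 and 25.8 CPM without overlap (1.30 ± 0.13, limma adjusted p = 1.6e-05; -1.34 fasted). Ebp, a sterol isomerase, rose by 0.61 ± 0.07. Stard4, an intracellular cholesterol carrier, differed from these: it rose in the fed pair, 41.3, 43.8, 46.2 and 42.2 CPM against 21.3, 23.3, 23.6 and 26.5 CPM (0.85 ± 0.09), but did not pass in the fasted pair (-0.13, limma adjusted p = 0.27), and the differences were 0.98 apart (adjusted p = 6.3e-05).

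Lipogenesis genes had a median of 0.70, but only 4 of 18 passed, all higher, a share close to the 19.5% of all genes. By library totals 2 were higher and 1 lower, and 1 was higher without NRF ZT16 replicate 1. Me1, malic enzyme, which supplies NADPH, measured 6658, 5561, 8627 and 7506 CPM against 1593, 3990.5, 1825 and 4443 CPM (1.38 ± 0.50, limma adjusted p = 0.042), with NRF ZT16 replicates 2 and 4 above replicates 1 and 3. Me1, and Pgd of the pentose phosphate path (0.80 ± 0.30), lost their call on leaving out most single libraries of the pair, with limma adjusted p of 0.13 for both without NRF ZT16 replicate 1. G6pdx, the first enzyme of that path, rose by 0.96 ± 0.17 and kept its call. Slc25a1, the citrate carrier, rose by 1.08 ± 0.31, and missed the threshold without NRF ZT16 replicate 1 (limma adjusted p = 0.053). In the fasted pair 16 of the 18 were lower by day (13.0% of all genes).

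Of 20 fatty acid oxidation genes 12 rose (19.5% of all genes) and none fell, with a median of 0.43 (11 higher and 1 lower by library totals, 11 and 2 without NRF ZT16 replicate 4). Hadha and Hadhb, both subunits of the mitochondrial trifunctional protein, rose by 0.61 ± 0.08 and 0.58 ± 0.08, from 311, 347, 375 and 334 CPM to 516, 469, 539.9 and 566 CPM for Hadha. Etfdh, which passes electrons from this path to the respiratory chain, rose by 0.58 ± 0.07. The thioesterase Acot2 rose by 0.96 ± 0.12 against 0.03 in the fasted pair, a difference between pairs of 0.93 (limma adjusted p = 0.00064).

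Genes higher under NRF in both feeding states were led by Nnat, Plppr3, Spon1, Ifi27l2a, Sncg and C4b. Nnat, an imprinted membrane proteolipid, was at 51.9, 89.6, 21.3 and 122 CPM at DRF ZT4 against 422, 326, 245 and 185 CPM at NRF ZT16 (-2.23 ± 0.54, limma adjusted p = 0.0054), without overlap but with a wide spread in both groups. Over the 5 other time points its regimen difference was -0.29 ± 0.39 and did not pass. Plppr3 stood at 5.89, 5.69, 5.24 and 3.7 CPM against 28.1, 24.99, 22.7 and 20.1 CPM (-2.03 ± 0.26, and -1.18 ± 0.16 at the other times). Spon1, a matrix protein, and Sncg, γ-synuclein, fell by 1.62 and 1.44, and C4b, complement component 4, by 1.16.

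Cfd, which encodes the adipokine adipsin (complement factor D), belongs to the same class and is among the most abundant of these genes. It measured 6733, 4977, 7362 and 4445 CPM at DRF ZT4, 12612, 12835, 12527 and 11529 CPM at NRF ZT16, 10735, 13854, 18266 and 11049 CPM at NRF ZT4 and 3835, 4802, 4118 and 4298 CPM at DRF ZT16. Each NRF library exceeded each DRF library, with differences of -1.10 ± 0.24 fed, 1.63 ± 0.24 fasted and -1.32 ± 0.15 for DRF minus NRF at the other times (limma adjusted p = 2.5e-07). Lep, the leptin gene, gave 0.52 ± 0.26 and did not pass (limma adjusted p = 0.12).

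Insulin and FOXO-responsive genes, several of which FOXO factors raise in the fast, gave 8 of 17 lower and none higher (median -0.30; 15.1% of all genes lower), or 6 lower and 3 higher without NRF ZT16 replicate 3. Txnip, a glucose-responsive arrestin-like protein, measured 386, 342, 309 and 326 CPM against 581, 577, 824 and 673 CPM (-0.95 ± 0.15, limma adjusted p = 0.00037). Fbxo32, a ubiquitin ligase, fell by 0.83 ± 0.17 and Foxo3 by 0.42 ± 0.09. For Txnip the fasting-aligned pair gave -0.20 (limma adjusted p = 0.35), and both fasted groups lay above both fed groups.

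Cell proliferation genes were higher in 18 of 20 cases (19.5% of all genes) and lower in none, with a median of 0.88, and in 14 of 20 by library totals. Over the 5 other time points 19 of the 20 were higher under DRF, where 9.88% of all genes were, and 19 without DRF ZT8 replicate 1 and DRF ZT0 replicate 4, where 2486 of all 15509 genes were. In the pair of DRF ZT8 and NRF ZT20 none of the 20 passed, with a median of 0.85, or 0.26 without DRF ZT8 replicate 1. Cdk1, the mitotic kinase, was at 9.27, 8.87, 8.5 and 6.05 CPM against 2.64, 2.68, 3.8 and 2.38 CPM (1.24 ± 0.25, limma adjusted p = 0.0019). Ccnb1, its cyclin partner, rose by 1.17 ± 0.24, Tpx2 by 1.13 ± 0.21 and Cdc20 by 1.12 ± 0.23. Levels were low, under 10 CPM in all 8 libraries for these 4 genes. In the same libraries Hba-a2, an α-globin gene whose reads can be shared with its near-identical copy, measured 68.6, 73.6, 53.1 and 57.8 CPM against 22.4, 22.97, 30.3 and 28.2 CPM (1.25 ± 0.29), and the heme enzyme Alas2 rose by 1.15 ± 0.27; S100a8, a neutrophil marker, rose by 0.81 ± 0.16 but stayed under 2 CPM. Whether blood cells account for part of the proliferation list was not tested.

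Interferon-stimulated genes were lower at DRF ZT4 in 8 of 19 and higher in 1 (median -0.27), where 15.1% of all genes were lower. Oas2 was at 9.08, 8.04, 6.82 and 5.41 CPM against 21.7, 16.8, 12.3 and 15.6 CPM (-1.07 ± 0.17) and Irf7, a master regulator of the response, fell by 0.64 ± 0.15. Among the macrophage markers, of which 4 of 11 were lower, Cd163, a haemoglobin scavenger receptor that glucocorticoids induce, was at 71.9, 71.6, 61.3 and 60.1 CPM against 150.5, 159.6, 157 and 121 CPM (-1.14 ± 0.13, limma adjusted p = 3.3e-05). The summed level of the 11 macrophage markers ran from 1001 to 1223 CPM at DRF ZT4 and from 1067 to 1634 CPM at NRF ZT16, ranges that overlap.

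Heat shock genes had no common direction in the fed pair, with 3 higher and 2 lower of 18 (34.7% of all genes called), or 2 higher and 6 lower by library totals. In the fasted pair 15 of the 18 were lower by day and none higher (13.0% of all genes lower). The inducible chaperones Hspa1a (-1.08 ± 0.15) and Hspa1b (-0.81 ± 0.14), near-identical copies that can share reads, were lower at DRF ZT4, and Cryab, αB-crystallin, was higher (1.13 ± 0.19). Cytosolic ribosomal protein genes gave 1 of 27 lower by effective sizes (15.1% of all genes) and 14 of 27 lower by library totals (3717 of all 15509 genes). In the fasted pair 26 of the 27 were higher by day (15.4% of all genes). Immediate early genes gave 1 higher and 2 lower of 21 (34.7% of all genes called), or none higher and 7 lower by library totals and 1 higher and 5 lower without NRF ZT16 replicate 4.

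**Figure D5:**
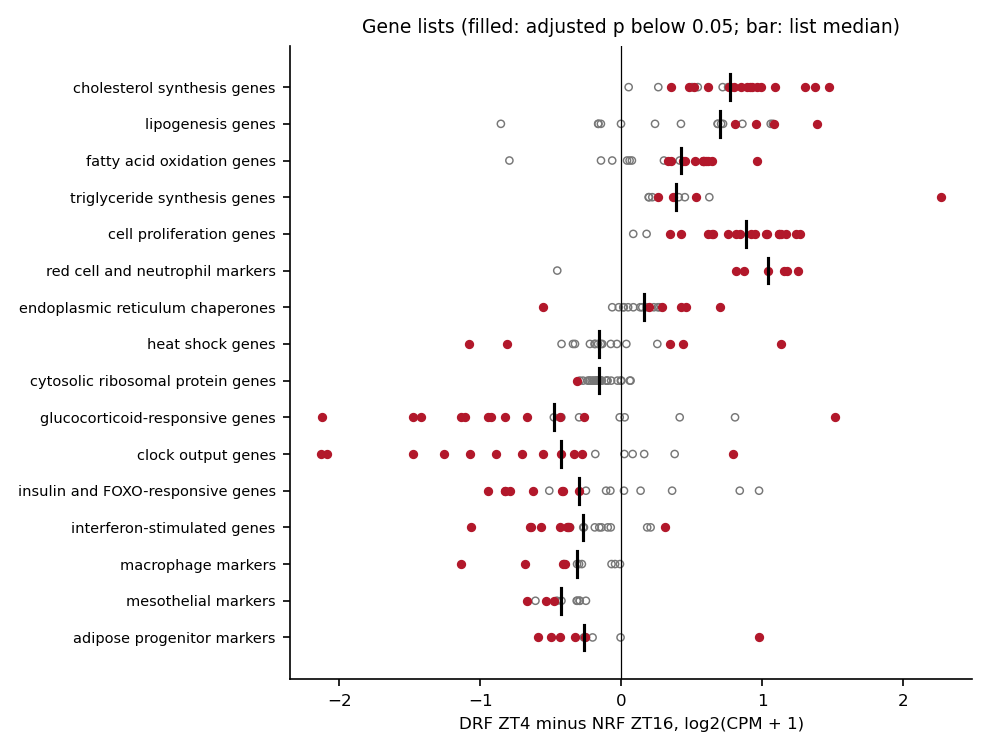
Each point is a gene of the named list (y axis) at its DRF ZT4 minus NRF ZT16 difference in log2(CPM + 1) (x axis), filled where the adjusted p was below 0.05, with a black bar at the list median. Cholesterol synthesis (median 0.77) and cell proliferation genes (0.88) lie to the right, and glucocorticoid-responsive (-0.48) and clock output genes (-0.43) to the left.

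A few of the largest changes belonged to no list. Cyp1a1, the cytochrome P450 induced through the aryl hydrocarbon receptor, had the largest fall among the named genes. It went from 24.1, 276, 21.4 and 292 CPM at NRF ZT16 to 12.3, 7.17, 18.5 and 11.3 CPM at DRF ZT4. Replicates 2 and 4 of NRF ZT16 lay far above replicates 1 and 3, so the difference of -2.70 ± 0.71 (limma adjusted p = 0.0087) rests on a group that was itself split. Inmt, a methyltransferase of small amines, was uniform by contrast, 25.1, 21.8, 20.3 and 22.2 CPM against 121, 116, 154 and 103 CPM (-2.40 ± 0.26). Serpina3k (-1.97 ± 0.46) and the cytochrome P450 Cyp2f2 (-1.86 ± 0.29) also fell.

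Among the rises, Lhfpl2 was higher by day in both pairs (1.70 ± 0.18 fed, 1.09 fasted), from 38.01, 42.4, 53.2 and 69.2 CPM to 127, 183, 150.3 and 201 CPM in the fed pair. Fam20c, the kinase of secreted proteins, rose only in the fed pair, 63.8, 102, 73.8 and 147 CPM against 27.8, 24.2, 41.9 and 22.4 CPM (1.67 ± 0.22), and in the fasted pair gave 0.19 (limma adjusted p = 0.55; difference between the pairs 1.48, adjusted p = 0.002). Arhgef37 (1.69 ± 0.31) and Slc15a5 (1.64 ± 0.45) were higher under DRF in both feeding states.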

How the data were processed

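PolyA RNA of VAT from single mice was sequenced by the authors as 150-bp read pairs from a library kit that keeps no strand. Per the labels, reads were aligned with HISAT2 2.0.5 and counted with featureCounts 1.5.0-p3 on mm10. The values the authors deposited, a score with no stated formula, fell on log2(CPM + 1) divided by exon length and scaled per library. From the steps of low genes, read numbers and effective library sizes were recovered: 99.9996% of 1261967 values of at most 10000 reads came out whole within 0.02 reads, for 25934 of 25939 genes (25906 with a symbol). CPM here is scaled to that effective size, and no count model was run on the score. No 2 libraries were duplicates (highest correlation 0.9953).

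Genes with a mean of at least 0.5 CPM over DRF ZT4, NRF ZT16, NRF ZT4 and DRF ZT16 (15509 genes) were fitted with limma 3.58.1 (R 4.3.3, intensity trend) on log2(CPM + 1), as 4 groups of 4 libraries without a covariate, and p-values were adjusted by Benjamini-Hochberg over all of them. A called gene has adjusted p below 0.05. Fold changes on this scale understate changes of low genes. DRF ZT8 and NRF ZT20 were fitted by themselves. P-values set a difference of group means against the spread between these mice, which limma pooled over the groups of a fit and moderated across genes. The script for the fits was tested on simulated data.

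Named genes were the 20 clock genes, the 12 largest rises and falls (protein-coding, called, not overlapping, mean of at least 3 CPM), the 6 leading genes of each class called in both contrasts, and up to 4 genes by limma p of each other list. The comparison, the 34 gene lists and these rules were chosen with earlier results of these data known. Of 80 genes given values, 43 overlap another annotated gene in position, 19 of them a protein-coding one, so shared reads cannot be told apart there. Not every named gene is given values here. Alternatives were a stricter filter on low values and none, other pseudocounts (0.25 and 4), stricter thresholds, other scalings, the deposited scale, voom weights, only the 8 libraries of the pair or all 56 in the fit, the replicate number as a block and leaving out each library.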

Additional observations from a re-analysis of the deposited data

Results flagged for a closer look

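In 13 of 320 sets of 4 libraries (80 genes in 4 groups), 1 library stood apart by Dixon's ratio of its gap to the range (above its 95% critical value), where chance alone marks about 1 set in 20. At DRF ZT4 the apart library was the highest for Ciart (0.895), Fbn1 (0.853), Hsd11b1 (0.911), Tsc22d3 (0.843) and Zim1 (0.867) and the lowest for Tpx2 (0.912). At DRF ZT16 it was the lowest for Adamts16 (0.886) and the highest for Cd163 (0.833), Slc15a5 (0.919), Slc25a1 (0.896) and Tsc22d3 (0.877). At NRF ZT4 it was the highest for Elovl3 (0.948) and Serpina3k (0.860). No NRF ZT16 group was marked for these genes.

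Some of the 80 genes were chosen for leading a class with opposite signs in the fed and fasted pairs. That choice favours a difference between the pairs, so the share among them cannot be set against that of all genes. Of all 15509 genes, 35.9% passed limma's test of the difference (adjusted p below 0.05). For 51 of the 80 genes the day against night difference of the fed pair differed from that of the fasted pair by this test. This difference is also the DRF minus NRF contrast summed over ZT4 and ZT16, in log2(CPM + 1).

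Among genes higher under DRF in both feeding states it was 6.71 for Podnl1, 5.93 for Ncan, 4.58 for Mogat2, 4.41 for Pdzk1ip1, 4.15 for Elovl3, 3.74 for Tlcd2, 3.45 for Hsd11b1, 3.41 for Slc15a5 and 2.56 for Arhgef37. Metabolic genes of the same direction followed, with 3.02 for Me1, 2.64 for Tm7sf2, 2.20 for Slc25a1, 1.79 for Pgd, 1.69 for G6pdx, 1.13 for Ebp, 1.11 for Hadha, 1.05 for Hadhb and 0.89 for Etfdh. Cryab gave 2.11. Among genes higher under NRF in both feeding states it was -4.87 for Nnat, -4.44 for Plppr3, -3.49 for Spon1, -3.18 for Sncg, -2.73 for Cfd, -2.72 for Cyp2f2, -2.39 for C4b and -1.14 for Irf7.

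Genes that passed in the fed pair and not in the fasted pair gave 1.67 for Alas2, 1.44 for Hba-a2, 1.01 for S100a8, 1.52 for Tpx2, 1.49 for Ccnb1, 1.38 for Cdk1, 1.08 for Cdc20, 1.48 for Fam20c, 0.98 for Stard4, 0.93 for Acot2 and 0.65 for Clock. With a lower value in the fed pair, the differences were -0.66 for Oas2, -0.75 for Txnip, -0.84 for Tspan4, -0.92 for Nr1d2, -1.08 for Fbxo32 and -2.70 for Serpina3k. Cry1, which passed in the fasted pair alone, gave 0.94, and Lep, which passed in neither, gave 1.01. Genes that passed in both pairs with one sign but in unequal size were Per2 (1.12), Nr1d1 (0.73), Cd163 (-0.50), Cys1 (-0.62) and Inmt (-1.25).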

How the results depend on the processing

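Beside the thresholds, 95 of the 132 named genes called in the feeding-aligned contrast kept the call in all 27 alternatives and 37 lost it in at least 1, none with a reversed sign. At an adjusted p of 0.01, the counts were 2753 for the feeding-aligned pair, 2127 for the fasting-aligned pair, 3030 for the difference between them, 3022 for feeding state and 1600 for time of day. With an absolute log2 difference of at least 1 they were 209, 300, 893, 155 and 59. Leaving out 1 library gave 3724 to 5671, 3142 to 4629, 4628 to 5720, 4184 to 4840 and 2795 to 3988, and 3 to 97 for DRF ZT8 against NRF ZT20. Genes called in both pairs numbered 398 (without DRF ZT16 replicate 1) to 646 with the same sign and 760 to 1185 with opposite signs. They numbered 353 and 494 with all 56 libraries in the fit, a fit chosen for these counts after seeing the data. The regimens over the 5 other time points gave 4754 genes without DRF ZT8 replicate 1 and DRF ZT0 replicate 4, and the cause was not tested. The split by library totals, also added after seeing the data, stands in the text above.

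Replicate numbers recur across groups, and same-numbered libraries of DRF ZT4 and NRF ZT16 deviated with correlations of 0.399, -0.325, 0.083 and -0.071, without a common sign. Among DRF ZT4, NRF ZT16, DRF ZT8 and NRF ZT20 the replicate 1 libraries all correlated positively (0.231 to 0.410). Replicates 2, 3 and 4 gave both signs there. What the numbers stand for was not tested. With the replicate number as a block, 5184 genes passed in the feeding-aligned pair (2864 higher, 2320 lower) and 3 between DRF ZT8 and NRF ZT20. The 33327661 to 40993338 reads per library leave low genes, such as Ciart and S100a8, least precise.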

Other observations

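The remaining lists are given as counts, beside 34.7% of all genes called, 19.5% higher and 15.1% lower. Triglyceride synthesis genes gave 4 of 10 higher at DRF ZT4 and none lower (median 0.39), or 3 higher by library totals (median 0.26). Lipolysis and lipid droplet genes gave 5 of 17 higher and none lower (median 0.29), or 3 higher by library totals (median 0.15). Adipokine genes gave 1 higher and 4 lower of 11, or none higher and 6 lower by library totals. Endoplasmic reticulum chaperones gave 5 higher and 1 lower of 18, or 1 higher and 1 lower by library totals. Collagen and matrix genes gave 6 higher and 5 lower of 21, or 2 higher and 5 lower by library totals and 8 higher and 2 lower without NRF ZT16 replicate 3. Cold-inducible RNA-binding genes gave 1 higher and 3 lower of 5, or none higher and 3 lower by library totals. Adrenergic and thermogenic genes gave 4 higher and 2 lower of 17, and clock kinases and ligases 2 higher and 1 lower of 9, or none higher and 2 lower by library totals. B lymphocyte markers gave 1 of 8 lower, endothelial markers 1 higher and 1 lower of 10 (none higher and 4 lower by library totals), adipocyte markers 1 higher and 1 lower of 10 (none higher and 2 lower by library totals), and the 1 exocrine pancreas marker tested was higher.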
